A study of Mus musculus with 44 samples.

Results

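Aroclor1260 given together with PCB126 was compared with PCB126 given alone, by setting the m6A peak lists of one treatment against those of the other. The members are every peak in the 4 lists of these treatments, 12274 of the 17573 peaks in the series, at 1438 of its 1512 gene identifiers, from 22 of its 44 libraries. Lists were compared like with like, input-referenced against input-referenced and IgG-referenced against IgG-referenced. A peak counted as shared when it had the same chromosome and strand as a peak of the other list and their spans overlapped by 1 bp or more. A gene counted as shared when its identifier had a peak in both lists.

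All animals were male C57Bl/6J mice on a high-fat diet with 42% of the energy from fat, so neither group stands for mice on ordinary chow. One group received PCB126 by mouth, and the other received Aroclor1260 and PCB126, once, at week 2 of a 12-week study. For each treatment there were 5 m6A immunoprecipitates of liver RNA, 5 input libraries and 1 immunoprecipitate with control IgG made from pooled material. The labels and files used here give no doses. The control and Aroclor1260 groups, kept on the same diet, appear below only to show where a peak of interest was also found.

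N6-methyladenosine (m6A) is set on messenger RNA by a writer complex around METTL3 and METTL14, removed by the demethylases FTO and ALKBH5 and bound by reader proteins of the YTH family, which affect splicing, translation and decay. In MeRIP, RNA fragments are pulled down with an antibody against m6A, and a peak is a stretch of exon that is enriched over a reference library. PCB126 is a single dioxin-like biphenyl that activates the aryl hydrocarbon receptor. Aroclor1260, a commercial product, mixes many heavily chlorinated biphenyls, which act in liver mostly through the receptors CAR and PXR, the regulators of drug-metabolising enzymes.

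Each list was called by the authors on a whole treatment and has no value for a single mouse, so the spread between animals is unknown and no difference below was tested across animals. Sequencing depth is unknown too. Intervals are Wilson 95% intervals and cover counting error only. In all 4 lists between 94.6% and 96.0% of the peaks lay on the plus strand, so a gene missing from a list says little about its methylation. Markers that define hepatocytes had a peak for 5 of 10 genes (Tat, Hnf4a, Apob, Apoa1 and Ttr). No peak was listed for any of the 6 Kupffer cell, 6 stellate cell or 6 lymphocyte markers, while 1 of 6 endothelial markers (Cdh5, 3 peaks after PCB126 and 4 in the combination, against IgG alone) and 1 of 5 cholangiocyte markers (Spp1, 1 peak after PCB126 against IgG) had one.

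Letters of the RNA could be shown for peaks that reach the first 50 transcribed bases of a gene, from RefSeq start sites of GRCm38.p6. In the input-referenced lists, 27 PCB126 peaks and 30 combination peaks did so, of which 18 and 22 were shared. Such a peak covered an m6A consensus motif in 12 genes. Windows of 30 bases around the motif are printed for 8 of them, to show where peaks were common to both treatments and where a peak of only 1 treatment reached the start. The 18 motifs searched, on the transcript strand, have 5 letters, with G, A or T in the first place, G or A in the next, then A and C, and T, A or C in the last, GGACT being one of them. Of all 32851 start windows in the table, 54.4% hold at least 1 of them, so a match is a description and not a mapped site. Capitals mark the motif, and T stands for U.
Amotl2: cgactagtgcgcacctccgttgcTGACTgt
Dbp: gtgcaaaattggctagagccagAGACTcgc
Hexim1: ggaggcggaggaGAACTgagcggagcatcg
Sdc1: gcgggccagaggAGACAgagcctaacgcag
Arhgap5: tgatctcgaagaAGACCtttctttggcaat
Depp1: ccacagcacatcgtccTGACTgtcctcttc
Sord: gccgggtccagcGGACAcctcgaagcaaga
Gm16537: ccgatctcgcgaGGACCttgttctgttccg
The motifs in the windows of Amotl2 (chr9:102717824-102717853), Dbp (chr7:45705267-45705296), Hexim1 (chr11:103116338-103116367) and Sdc1 (chr12:8771413-8771442), all on the plus strand, lay under a peak of both input-referenced lists. The peak over the start of Hexim1, an inhibitor of the elongation kinase P-TEFb, had a fold enrichment of 17.1 after PCB126 and 2.80 in the combination, where the gene's strongest peak lay elsewhere and had 22.7. Dbp, a clock-controlled transcription factor, had 3.62 and 4.12 in the same order, and Amotl2, an angiomotin relative, had 2.44 and 2.36. The motifs in the windows of Arhgap5 (chr12:52516093-52516122), Depp1 (chr6:116650704-116650733) and Sord (chr2:122234856-122234885) lay under a combination peak alone, with folds of 20.8, 16.9 and 1.83. The motif of Gm16537, a predicted gene on the minus strand (chr15:99724427-99724456), lay under a PCB126 peak alone, with a fold of 1.62. The windows are placed by the motif, so their outer bases need not lie under the peak. Arhgap5 and Depp1 had peaks in both treatments all the same, the strongest at 15 and 17.9 after PCB126, so what differed was how far a peak extended and not whether the gene was listed.

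By an overlap of 1 bp, most of the PCB126 peak list was found again when Aroclor1260 had been added, and similar numbers of input-referenced peaks stood in only 1 of the 2 lists on either side. Of the 2284 combination peaks called against input, 1445 or 63.3% (61.3 to 65.2%) overlapped a PCB126 peak, and of the 2178 PCB126 peaks, 1366 or 62.7% (60.7 to 64.7%) overlapped a combination peak. The background of unshared peaks against which everything below is read was thus 36.7% of the combination list and 37.3% of the PCB126 list. Against IgG, 66.6% (65.1 to 68.1%) of 3683 combination peaks and 56.3% (54.8 to 57.8%) of 4129 PCB126 peaks were shared, leaving 33.4% and 43.7%. With an overlap of at least 50% of each peak, the input-referenced shares were 41.2% of the combination and 43.1% of the PCB126 peaks, so that less than 50% of either list was shared. The lists called against input differed little in length, whereas the PCB126 list called against IgG was the longer.

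Counted by gene, the lists had more in common than counted by peak. Against input, 540 identifiers had a peak in both treatments, which is 72.0% (68.7 to 75.1%) of 750 combination genes and 74.6% (71.3 to 77.6%) of 724 PCB126 genes. Against IgG the 811 common genes were 77.6% (74.98 to 80.03%) of 1045 and 70.0% (67.3 to 72.5%) of 1159. Peaks in both treatments with both references were found in 501 genes.

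Where both treatments had a peak, its edges often coincided. Of 890 input-referenced peaks that paired with exactly 1 peak of the other list, 238 (26.7%) had the same first and last base, 434 the same start and 426 the same end. The median shift was 49 bp at either edge. The combination peak was the wider in 282 pairs, the PCB126 peak in 334, and 274 were equal. The remaining overlaps were splits or mergers, with 191 combination peaks lying over several PCB126 peaks and 238 PCB126 peaks over several combination peaks. In exonic bases, 461 kb were covered in both treatments, 65.6% of the 702 kb of the combination and 62.1% of the 742 kb of PCB126.

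Whether a peak was shared went with its fold enrichment. Each list was cut by fold into 4 equal parts. In the lowest part of the combination list, 37.8% of the peaks were found after PCB126, followed by 57.6%, 73.7% and 83.9% in the parts above. For the PCB126 list the shares were 46.6%, 54.0%, 66.2% and 84.0%. Against IgG they ran from 50.1% to 86.6% for the combination and from 40.9% to 80.1% for PCB126. The order was the same in all 4 lists, with the weakest peaks the least often shared.

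**Figure D1:**
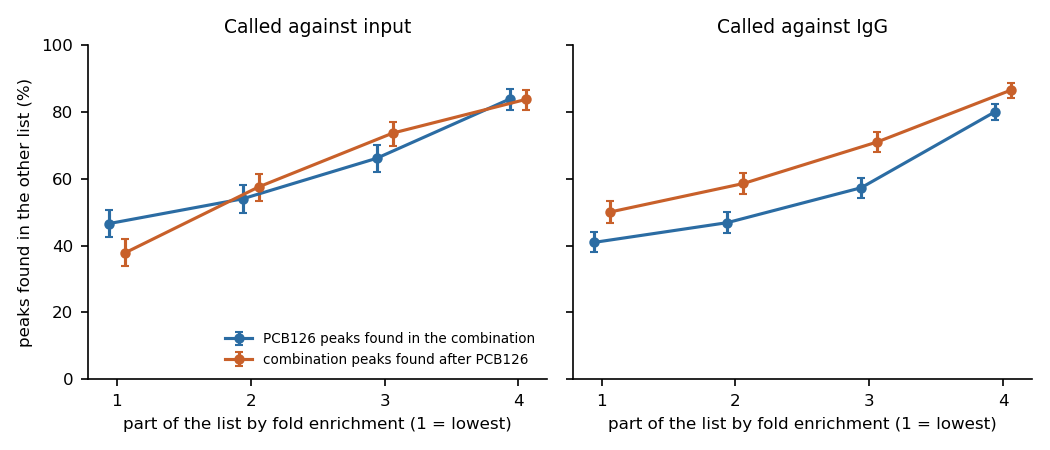
Percentage of peaks (vertical axis) found in the list of the other treatment, in 4 equal parts of each list by fold enrichment (horizontal axis, 1 = lowest), for lists called against input (left) and against IgG (right). Points are shares and bars Wilson 95% intervals of counting error. Against input the combination goes from 37.8% to 83.9% and PCB126 from 46.6% to 84.0%.

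The peaks of only 1 treatment were weaker and narrower than the shared ones. Against input, the 839 unshared combination peaks had a median fold of 1.88 and a median exonic width of 150 bp, where shared ones had 2.80 and 251 bp. The 812 unshared PCB126 peaks had 2.09 and 150 bp, where shared ones had 2.83 and 288 bp. A fold under 2 was listed for 52.9% of unshared and 23.0% of shared combination peaks, and for 44.0% and 24.0% of PCB126 peaks. Their median place along the gene differed little. The median relative position, from 0 at the start to 1 at the end of the gene span, was 0.82 for unshared and 0.79 for shared combination peaks, and 0.78 for both kinds after PCB126. Between 46.4% and 51.1% of each kind lay in the last 20% of the span.

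Many of these peaks were not missing from the other treatment altogether. Of the 839 unshared combination peaks, 420 or 50.1% (46.7 to 53.4%) overlapped a PCB126 peak called against IgG, and of the 812 unshared PCB126 peaks, 364 or 44.8% (41.4 to 48.3%) overlapped a combination peak called against IgG. Counted separately over all unshared peaks, 298 combination peaks (35.5%) and 298 PCB126 peaks (36.7%) lay in a gene that had another peak in the other input-referenced list. A peak can be in both counts, so they do not add up. An Aroclor1260 peak called with either reference lay over 269 or 32.1% (28.99 to 35.3%) of the unshared combination peaks and over 150 or 18.5% (16.0 to 21.3%) of the unshared PCB126 peaks. A control peak called with either reference lay over 259 (30.9%) and 203 (25%) of them. Among shared peaks the shares were higher. An Aroclor1260 peak lay over 60.1% of shared combination and 61.4% of shared PCB126 peaks, and a control peak over 69.7% and 70.0%. Aroclor1260 peaks called against input alone lay over 25 (2.98%) unshared combination and 24 (2.96%) unshared PCB126 peaks. For shared peaks these shares were 24.3% and 24.8%.

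A stricter count asked for a peak against input that its own IgG list also held, and that was in neither list of the other treatment. This left 252 combination peaks (11.03%, 9.81 to 12.4%) in 156 genes and 304 PCB126 peaks (13.96%, 12.6 to 15.5%) in 174 genes. Of these, 113 combination peaks in 89 genes and 127 PCB126 peaks in 97 genes stood in a gene that also had a peak in the other treatment. An Aroclor1260 peak with either reference lay over 53 of the combination peaks (21.03%) and 39 of the PCB126 peaks (12.8%), and a control peak over 54 (21.4%) and 50 (16.4%). The strongest such combination peak beside a common one lay in Rbbp6, a p53- and RB-binding ubiquitin ligase, with a fold of 7.85 at chr7:122970639-122970739. It was followed by Uox, the urate oxidase of liver peroxisomes, with 3.83, Chdh, the choline dehydrogenase, with 3.5, and Cyp4a12a, a male-biased fatty acid hydroxylase with near-identical relatives, with 3.45. After PCB126 the corresponding peaks lay in Zeb1, a zinc finger repressor, with 4.40, Klhl25 with 3.83, Rnf125, a ubiquitin ligase, with 3.82, and Atmin with 3.67. Apart from Rbbp6, none of these named peaks had a fold above 5.

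At the level of whole genes, 70 of the 1438 identifiers (4.87%) had combination peaks with both references and no PCB126 peak with either. Of these, 62 have a RefSeq symbol. They held 157 input-referenced peaks, 28 of the genes had a single one, and the highest fold per gene had a median of 2.90 and reached 8.73. Mitochondrial, secreted and membrane proteins were all among the highest. With 1 reference the counts were larger, 210 genes against input alone (22.5% of 934) and 234 against IgG alone (16.8% of 1393). Since a gene enters this class through having combination peaks and no PCB126 peaks, the values below describe it and test nothing.

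The highest fold belonged to ND5, a subunit of respiratory complex I encoded in mitochondrial DNA. It had 2 peaks up to 8.73 against input, the strongest from base 12875 to 13565 of the mitochondrial genome, and 3 up to 8.87 against IgG. The control also had 2 ND5 peaks up to 2.53 against IgG. ND2, another complex I subunit, had 2 combination peaks up to 5.19 against input and 2 up to 4.37 against IgG, and none in any other list. The mitochondrial genes as a whole are described with the gene lists.

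Among the other high ones, 3 have a role in lipid and vitamin handling. Ttpa, the transfer protein that loads vitamin E for export from hepatocytes, had 2 peaks up to 6.25 against input (the strongest over 5 exons, chr4:20008641-20030237) and 3 up to 4.32 against IgG. Slc25a20, the carrier that brings acylcarnitines into mitochondria, had 2 peaks up to 4.86 and 3 up to 4.80. Abcg8, which with its partner exports sterols into bile, had 3 peaks up to 4.10 (chr17:84697313-84699384) and 4 up to 4.04. Weak peaks were listed elsewhere for Ttpa, with 1 Aroclor1260 peak of 1.29 against input, and for Slc25a20, with 1 peak each after Aroclor1260 (1.85) and in the control (1.33) against IgG, but none for Abcg8.

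Genes of secreted proteins in this class are described next, including members of the gene lists that rank below the 15 highest. Igf1, the growth factor that liver releases under growth hormone, had 11 peaks in the combination with each reference, up to 3.90 against input and 5.80 against IgG, over 2898 and 3098 exonic bp. None of the other 6 lists of the series had an Igf1 peak, and the 11 peaks were the most of any gene in this class. F9, coagulation factor IX, had 5 peaks up to 4.04 (the strongest at chrX:60029815-60029964) and 6 up to 5.05, and no peak elsewhere. Ttr, the thyroxine and retinol carrier of plasma, had 2 peaks of at most 1.40 and 1 of 1.65. Omd, a keratan sulfate proteoglycan of matrix, had 2 peaks up to 6.67 and 2 up to 8.80, but the control also had 2 peaks up to 3.80 with each reference.

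The rest of the 15 highest were genes of diverse cell functions. Mul1, a ubiquitin ligase of the mitochondrial outer membrane, had 1 peak of 6.31 against input and 2 up to 8.80 against IgG, and Aroclor1260 had 1 of 4.80 against IgG. Cnst, which takes part in connexin trafficking, had 4 peaks up to 6.00 and 3 up to 9. Ccm2, a scaffold of blood vessel integrity, had 1 of 5.85 and 1 of 3.5, and Zfp62, a zinc finger protein, 2 up to 5.14 and 3 up to 11.8. These last 3 had no peak in any list of another treatment.

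For 3 further genes the combination was not the only group with a peak outside PCB126. Rabgef1, an exchange factor for Rab5, had 2 peaks up to 4.83 against input and 2 up to 6.20 against IgG, and the control had 2 up to 7.20 against IgG. Car3, a cytosolic carbonic anhydrase abundant in male liver, had 3 up to 4.64 and 3 up to 3.53, and it had input-referenced peaks in both Aroclor1260 (2 up to 2.48) and the control (2 up to 2.31). Pgrmc1, a haem-binding membrane protein that interacts with cytochromes P450, had 4 up to 4.03 and 4 up to 3.51, with 1 Aroclor1260 peak of 1.21. Galnt1, which attaches the first sugar of O-linked glycans, had 3 up to 4.23 and 7 up to 4.00 and no peak elsewhere. Of all 70 genes, 19 had a peak in an Aroclor1260 list, 18 in a control list and 41 in neither. For the 501 genes with peaks in both treatments with both references, these numbers were 368, 398 and 61.

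**Figure D2:**
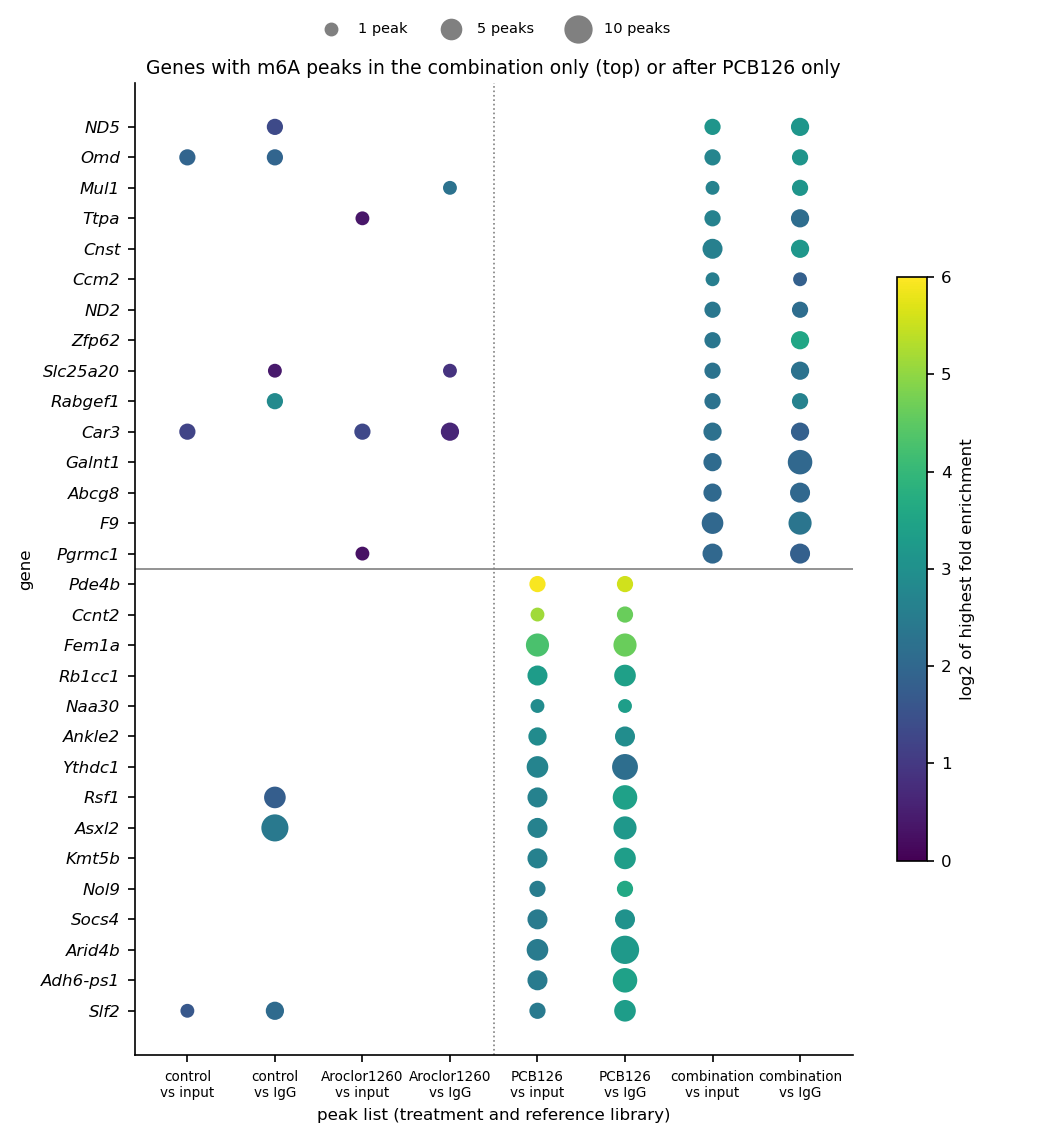
Peaks in each of the 8 lists (columns) for the 15 genes with the highest fold among those with peaks in the combination and none after PCB126 (top), and the 15 in the opposite class (bottom). Point area gives the number of peaks and colour the log2 of the highest fold. Ythdc1 is shown by its first identifier. The empty PCB126 columns at the top and empty combination columns at the bottom are the selection rule, and the points left of the dotted line show which genes also had control or Aroclor1260 peaks.

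In the opposite class, 79 of the 1438 identifiers (5.49%) had PCB126 peaks with both references and no combination peak with either, 73 of them with a symbol. They held 205 input-referenced peaks, and the highest fold per gene had a median of 3.38 and reached 61.2, with 18 genes above 5 where the combination class had 8. With 1 reference there were 184 genes against input alone (19.7% of 934) and 348 against IgG alone (25% of 1393). An Aroclor1260 peak was found for 9 of the 79 and a control peak for 14, while 60 had neither. Here too, the numbers for the 501 genes in all 4 lists were 368, 398 and 61.

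The highest values of this class were far above those of the combination class. Pde4b, whose product hydrolyses cyclic AMP, had 2 PCB126 peaks up to 61.2 against input and 2 up to 47.6 against IgG. Its strongest peak (chr4:102605018-102605815) ended close to the gene's end, at a relative position of 0.996, and no other treatment had a peak. Ccnt2, the cyclin T2 subunit of P-TEFb, had 1 of 35.2 over 1650 bp (chr1:127802214-127803863) and 2 up to 24.8. Fem1a, a substrate receptor of cullin ubiquitin ligases, had 6 up to 19.5 and 6 up to 24.6, the strongest at chr17:56259330-56259628. All 3 were absent from the control, Aroclor1260 and combination lists alike.

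The next ones included 5 genes of chromatin and nuclear function. Rsf1, a chromatin remodelling factor, had 4 peaks up to 6.37 against input and 7 up to 10.6 against IgG, and Asxl2, a Polycomb-associated protein, had 4 up to 6.29 and 6 up to 9.20. Kmt5b, a histone H4 lysine methyltransferase, had 4 up to 6.07 and 5 up to 10.2, and Arid4b, a corepressor subunit, had 5 up to 5.56 and 10 up to 9.40. Slf2, which recruits the SMC5/6 complex to damaged DNA, had 2 up to 5.44 and 5 up to 10. Of these, Rsf1 and Asxl2 also had 5 and 9 control peaks against IgG, and Slf2 had control peaks with both references (1 of 3.11 and 3 up to 4.20).

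The others served varied functions. Rb1cc1, a scaffold of the kinase complex that starts autophagy, had 4 PCB126 peaks up to 9.80 against input and 5 up to 10.4 against IgG. Naa30, the catalytic subunit of an amino-terminal acetyltransferase, had 1 of 7.46 and 1 of 10.2, and Ankle2, needed to rebuild the nuclear envelope after mitosis, had 3 up to 7.33 and 4 up to 7.6. Nol9, a ribosomal RNA processing kinase, had 2 up to 5.62 and 2 up to 12.2, and Socs4, of the cytokine signalling suppressors, had 4 up to 5.57 and 4 up to 8.20. Adh6-ps1, annotated as a pseudogene of an alcohol dehydrogenase, had 4 up to 5.56 and 7 up to 10.6, with reads that may be shared with its relatives. These 6 had no peak in any list of another treatment.

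List members below that rank included metabolic genes. G6pc, the catalytic subunit of glucose-6-phosphatase and the last step of glucose output, had 4 PCB126 peaks up to 4.46 against input, the strongest over 3 exons at chr11:101372717-101377017, and 3 up to 7.38 against IgG. It also had Aroclor1260 peaks with both references (1 of 2.11 and 3 up to 4.91), but neither combination nor control peaks. Foxq1, a forkhead factor, had 4 up to 4.71 and 5 up to 4.6, with control peaks against both references (4 up to 2.23 and 3 up to 4.20). Secisbp2, the factor that lets ribosomes insert selenocysteine, had 4 up to 2.60 and 3 up to 3.60, and G0s2, an inhibitor of the lipase ATGL, 1 of 2.40 and 2 up to 3.00 on the minus strand.

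Not every gene of these classes lacked peaks of the other treatment at its place, because identifiers can overlap. The peaks of 2 of the 79 PCB126 genes, Ythdc1 and Thtpa, overlapped combination peaks on the same strand that the lists assign to another identifier with the same symbol. For Ythdc1, the nuclear m6A reader, the first identifier had 5 peaks up to 6.57 against input and 8 up to 4.40 against IgG after PCB126 and none in the combination. The other identifier had 2 peaks against input in each treatment (up to 2.57 and 2.67), and 2 of the 5 peaks of the first lay over combination peaks of the second. Ythdc1 and Thtpa are therefore no examples of a gene without combination peaks. A further overlap with an identifier on the opposite strand was found for 7 PCB126 genes, among them Gpr39, whose peaks lay over those of Lypd1, and for 3 combination genes. No overlap with any exon block of a peak of the other treatment, on either strand, was found for 67 of the 70 and 71 of the 79 genes.

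In the 501 genes with peaks in all 4 lists, the ranking of genes by their highest fold was much alike in both treatments. Spearman's rank correlation across these genes was 0.86 against input and 0.76 against IgG for the highest fold, 0.77 and 0.80 for the number of peaks, and 0.88 and 0.91 for exonic bases covered. These are descriptions across genes, which share length, expression level and libraries and are not independent. Their median highest fold against input in the combination list was 4.69.

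Jund, which encodes a partner in AP-1 transcription factor dimers, headed this group, with 1 peak in each list. Its fold was 50.5 after PCB126 (chr8:70699194-70700322) and 53.9 in the combination (chr8:70699096-70700322) against input, and 208 and 92.4 against IgG. Gid8, a subunit of a ubiquitin ligase that targets gluconeogenic enzymes in yeast, had 36.9 and 36.5 over 1 identical span (chr2:180717846-180718339), and 37.7 and 48.5 against IgG. The values against input lay close together while those against IgG went in opposite directions for these 2 genes, so the reference decided the order.

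The same held for other strong genes. Arhgap29, a GTPase-activating protein, had 40.7 after PCB126 and 26.1 in the combination against input, over the identical 2-exon span chr3:122012137-122014861, but 38.5 and 63.6 against IgG. Ythdf3, a cytoplasmic m6A reader, had 27.7 and 20.2 against input but 42.9 and 113 against IgG. Bhlhe40, a repressor tied to the circadian clock, had 27.5 and 31.6 against input but 46.6 and 28.2 against IgG. Amotl2 had 20.2 and 24.9 against input but 21.4 and 17.0 against IgG. The order of the treatments at these 4 genes was the opposite with the other reference.

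For the remaining 4 of the 10 strongest genes, the 2 references gave one order or nearly equal values. Bmp2, a ligand through which liver senses iron, had 47.2 after PCB126 and 32.2 in the combination against input, and 40.6 and 39.1 against IgG. Ubtd1, a ubiquitin-like domain protein, had 24.3 and 21.2 against input and 44.0 and 25.3 against IgG. Fga, the fibrinogen alpha chain, had 24.2 and 25 against input and 19.6 and 21.8 against IgG, over 5 exons from chr3:83026224-83032154 after PCB126. Agtr1a, the angiotensin II receptor, had 39.1 and 31.3 against input and 66.1 and 66.4 against IgG.

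One gene, picked after its values were seen, lay far from the diagonal of this comparison with either reference. Cebpb, a transcription factor of liver regeneration and gluconeogenesis, had 1 PCB126 peak of 26.8 against input over 1165 bp (chr2:167689012-167690176) and 1 of 35.3 over the same span against IgG. In the combination it had 2 peaks against input with folds of 3.15 (chr2:167689012-167689545) and 3.07 (chr2:167689642-167689885), and 1 of 5.97 against IgG. The first input-referenced peak and the IgG-referenced peak (chr2:167689012-167689933) of the combination thus began at the same base as the PCB126 peak and were shorter. The highest control fold was 13.2 against input and 9.31 against IgG, and that of Aroclor1260 was 2.64 and 25.3, so the levels outside PCB126 also depended on the reference.

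**Figure D3:**
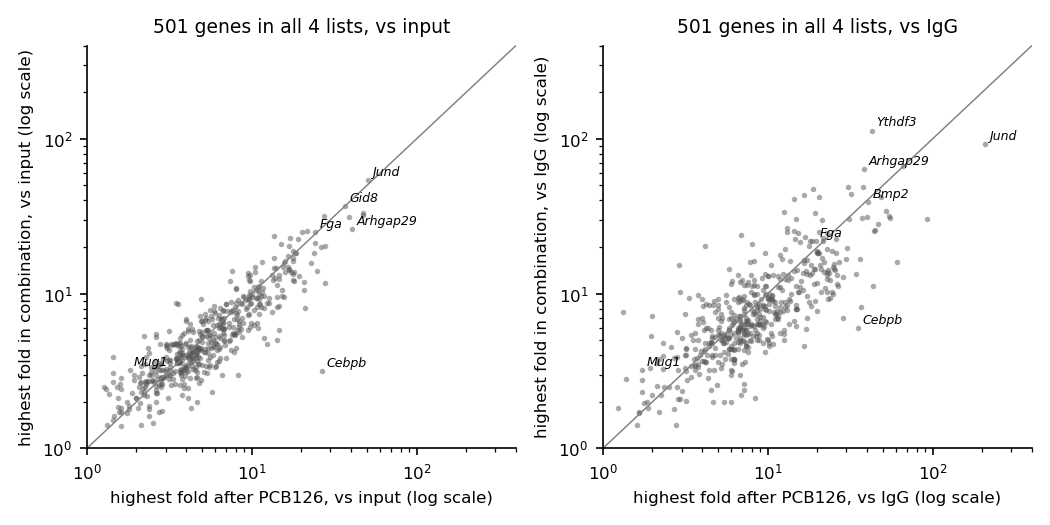
Highest fold enrichment of each of the 501 genes with peaks in all 4 lists, after PCB126 (horizontal) and in the combination (vertical), on log scales, against input (left) and against IgG (right). Each point is a gene and the line marks equal values. Jund lies near the line against input, at 50.5 and 53.9, and Cebpb far below it in both panels.

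In the same 501 genes the number of peaks per gene tipped to neither treatment. Against input, 160 genes had more peaks in the combination, 139 had more after PCB126 and 202 had equal numbers. Against IgG these counts were 167, 161 and 173. Only 73 genes had more in the combination with both references and 66 more after PCB126 with both.

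Among genes with many more combination peaks against input, some kept that order against IgG. Lpin2, a phosphatidate phosphatase on the path to triglyceride, had 8 peaks after PCB126 and 15 in the combination against input, and 7 and 13 against IgG. Golgb1, the Golgi tether giantin, had 7 and 14, and 11 and 17 against IgG. Nceh1, which hydrolyses cholesteryl esters, had 2 and 6, and 1 and 5 against IgG. Mug1, a plasma protease inhibitor with close relatives, had 2 and 7, and 3 and 5 against IgG. Trib1, a pseudokinase linked to plasma lipids, had 3 and 7, and 5 and 7, and Zbtb7a, a zinc finger repressor, 2 and 6, and 4 and 5. The 2 exceptions were Nsd1, a histone methyltransferase, with 6 and 12 against input but 10 and 10 against IgG, and Fam20c, a kinase of secreted proteins, with 2 and 7 but 5 and 3. More peaks did not always mean more exon covered. Nsd1 covered 4402 bp after PCB126 and 3458 bp in the combination against input, whereas Lpin2 covered 2355 and 3661 bp.

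Among genes with many more PCB126 peaks against input, some again kept the order against IgG. Zfp646, a zinc finger gene, had 12 peaks after PCB126 and 7 in the combination against input, and 10 and 7 against IgG. Tpr, of the nuclear pore basket, had 12 and 8, and 14 and 9. Aldh1b1, a mitochondrial aldehyde dehydrogenase, had 5 and 1, and 5 and 3, Tmem115, a Golgi protein, 4 and 1, and 5 and 2, and Bmp2 4 and 1, and 6 and 4. The order turned against IgG for Zfp638, with 7 and 3 against input but 7 and 9, and for the kinase gene Snrk, with 6 and 2 but 4 and 6. Hence 5 of these 7 genes, and 6 of the 8 above, had the same order with both references.

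**Figure D4:**
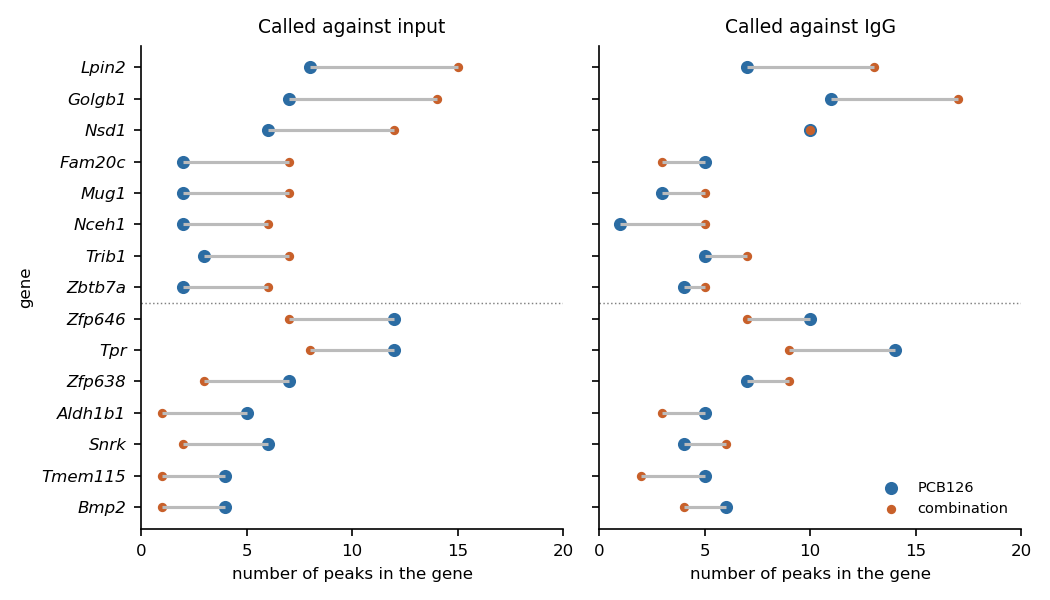
Number of peaks per gene (horizontal axis) after PCB126 (large blue points) and in the combination (small orange points), against input (left) and IgG (right), for the 8 genes with the largest excess in the combination (above the dotted line) and 7 of the 8 with the largest after PCB126 (below), as chosen on the input lists. Lpin2 goes from 8 to 15 and from 7 to 13, while Zfp638 and Snrk lie in opposite orders in the 2 panels.

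Lists of genes that could respond to these compounds were counted next, as the number of members with a peak against input. For scale, of all RefSeq symbols, 480 had a peak in both input-referenced lists, 188 in the combination only and 165 after PCB126 only. Of the 13 genes regulated through the aryl hydrocarbon receptor, none had a peak against input in either treatment. Tiparp, an ADP-ribosyltransferase that limits the receptor, had 2 combination peaks up to 13 against IgG and none after PCB126. The strands of the other 12 are not given here. Their absence means only that no peak was called, and nothing about their methylation is read from it.

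Of the 31 genes of CAR and PXR, the receptors that Aroclor1260 mixtures engage, 6 had a combination peak and 4 a PCB126 peak against input, and 5 and 6 against IgG. The cytochrome P450 gene Cyp2c29, a standard CAR target, had 3 peaks up to 2.21 after PCB126 and 5 up to 5.32 in the combination against input, and 4 up to 3.33 and 4 up to 9.33 against IgG. In all 4 lists a peak of Cyp2c29 began at or near the gene's first exon (chr19:39287131-39287279 after PCB126 against input), and the strongest combination peak joined 3 exons (chr19:39307664-39321615). Cyp2c50 had 4 combination peaks up to 3.12 and 2 up to 3.75 against IgG, and no PCB126 peak. Cyp2c37 had 3 combination peaks up to 2.67 against input and none in any other list. These genes lie in a family of near-identical copies, so the reads may not be assigned to a single member.

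Of the other CAR and PXR genes, Por, Rxra and Aldh1a1 had the higher top fold in the combination against input. Against IgG this order held for Por and Aldh1a1 but not for Rxra. All of them had fewer combination than PCB126 peaks against IgG. Por, the electron donor of all microsomal P450 enzymes, had 6 peaks up to 2.28 after PCB126 and 5 up to 3.91 in the combination against input, and 7 up to 3.16 and 4 up to 4.02 against IgG. Rxra, the partner receptor of CAR and PXR, had 7 up to 5.02 and 7 up to 5.66, and 8 up to 8.70 and 6 up to 6.38 against IgG. Aldh1a1, which makes retinoic acid, had 2 up to 2.61 and 3 up to 5.26, and 5 up to 2.70 and 3 up to 3.86. Abcc2, the canalicular conjugate pump, had 6 PCB126 peaks up to 4.33 and Gadd45b, a stress-response gene, 1 of 2.00, both against IgG alone and without a combination peak. Of the 22 other P450 genes, 4 had a combination peak and no PCB126 peak against input, namely Cyp4a10 (1 of 4.77), Cyp4a12a (2 up to 3.45), Cyp2e1 (2 up to 3.42) and Cyp2a5 (1 of 1.77). Each of these 4 did have a PCB126 peak against IgG, with folds of 1.49, 1.87, 2.86 and 1.62. In the combination against IgG, Cyp4a10 reached 3.47, Cyp4a12a 2.64 and Cyp2e1 3.07, whereas Cyp2a5 had no peak. Cyp2f2 had a PCB126 peak of 1.5 against input and no combination peak.

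Of the 26 genes of the m6A machinery, 3 had a peak. Zc3h13, which anchors the writer complex in the nucleus, had 5 PCB126 peaks up to 14.2 against input and no combination peak, but against IgG it had 7 PCB126 peaks up to 13.7 and 9 combination peaks up to 9.53. Ythdf3 had 3 PCB126 and 2 combination peaks against input and 2 and 3 against IgG. Ythdc1 has its account among the overlapping identifiers. No peak was listed in these 4 lists for the other 23, the methyltransferase and demethylase genes among them.

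For genes of fat metabolism the treatment with a peak often differed between the references. Of 28 genes of fatty acid oxidation, 5 had a combination peak and 3 a PCB126 peak against input, and 8 and 7 against IgG. Ppara, the receptor that drives this programme, had 3 PCB126 peaks up to 14.4 and no combination peak against input, but against IgG it had 2 PCB126 peaks up to 26.6 and 3 combination peaks up to 11.8. Cpt1a, the entry step of fatty acids into mitochondria, had 1 combination peak of 3.90 against input and 1 in each treatment against IgG (6.48 after PCB126 and 4.55). Slc25a20 was the only member of this list with combination peaks and no PCB126 peak under both references.

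Genes of lipid storage and of lipoproteins gave a similar picture. Of 35 lipogenesis and storage genes, 4 had a PCB126 peak and 4 a combination peak against input, 3 of them in common, and 7 after PCB126 and 5 in the combination against IgG. Pparg had 3 PCB126 peaks up to 1.86 and 4 combination peaks up to 3.00 against input, but against IgG only PCB126 peaks, 4 up to 4.40. Pnpla2, the lipase ATGL, had 3 combination peaks up to 2.00 and no PCB126 peak against input, but 3 combination and 5 PCB126 peaks against IgG. Of 14 apolipoprotein genes, 6 had a combination and 5 a PCB126 peak against input, and 6 in each against IgG. Apoa5 had 2 peaks in every list, up to 16.0 after PCB126 and 16.3 in the combination against input.

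Apob, the core protein of the lipoproteins that liver secretes, was the apolipoprotein gene that differed. It had 13 combination peaks up to 18 against input and no PCB126 peak. Against IgG it had 9 PCB126 peaks up to 8.10 and 8 combination peaks up to 12.5. The strongest combination peak against input (chr12:8007781-8009729) overlapped 3 PCB126 peaks called against IgG, namely chr12:8007082-8007781 by its last base, chr12:8009030-8009229 and chr12:8009479-8009779. The control also had Apob peaks, 8 against input and 6 against IgG, and Aroclor1260 had 5 against IgG.

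Of 26 genes of cholesterol and bile acids, 5 had a combination and 2 a PCB126 peak against input, and the counts were 5 and 5 against IgG. Nr0b2, the repressor SHP, and Slco1b2, a bile acid and drug importer, each had 1 combination peak (3.30 and 3.10) and no PCB126 peak against input, but peaks in both treatments against IgG. Abcb4, the phospholipid exporter of bile, had 8 peaks in each treatment against input. Abcg8 remained the member absent after PCB126 under both references.

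In growth and glucose control, the counts of members were close against input and further apart against IgG, by a few genes and in opposite directions. For scale, of all RefSeq symbols, 668 had a combination and 645 a PCB126 peak against input, and 927 and 1031 against IgG. Of 23 growth hormone, IGF and EGF genes, 4 had a combination and 5 a PCB126 peak against input, and 6 and 4 against IgG. Egfr, the epidermal growth factor receptor, had 3 PCB126 peaks up to 23.9 and 6 combination peaks up to 18.4 against input, and 7 up to 51.8 and 6 up to 34.0 against IgG. Met, the receptor for hepatocyte growth factor, had 12 combination peaks up to 5.40 against IgG and no peak in any other list. Lifr, a receptor of the interleukin-6 family, had 3 PCB126 peaks up to 12.6 and none in the combination against input, but 6 up to 12.8 and 6 up to 11.4 against IgG. Of 28 glucose and insulin genes, 5 had a PCB126 peak and 5 a combination peak against input, 4 of them in common. Against IgG the counts were 9 and 5. There G6pc (3 up to 7.38), Igfbp1 (1 of 1.34), Pck1 (1 of 1.34) and Igfbp2 (3 up to 1.53) had PCB126 and no combination peaks. Against input, Igfbp1 had a combination peak of 1.38 and no PCB126 peak. Pck1 also had Aroclor1260 (4 up to 2.74) and control (5 up to 1.92) peaks against IgG. G6pc (3 up to 4.91), Igfbp1 (2 up to 2.14) and Igfbp2 (2 up to 1.56) had Aroclor1260 peaks against IgG too. Igfbp1 also had 3 control peaks up to 1.71 against IgG.

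Most plasma protein genes with an input-referenced peak had it in both treatments. This was true of RefSeq symbols at large, with 480 in both, 188 in the combination only and 165 after PCB126 only. Of 21 coagulation genes, 7 had a combination and 6 a PCB126 peak against input, all 6 shared, with F9 the exception, and 9 and 8 against IgG. Of 35 acute phase and carrier genes, the counts were 7 and 5, all 5 shared, and Crp, C-reactive protein, had 22.8 after PCB126 and 15.8 in the combination. Ttr and the retinol carrier Rbp4 (1 of 2.75) had combination peaks alone against input, and Rbp4 had PCB126 peaks against IgG. Against IgG, 7 acute phase and carrier genes had a combination and 8 a PCB126 peak. There Saa2, Ambp and C3 (5 peaks up to 4.00, on the minus strand) had PCB126 peaks alone, and Ttr and Orm1 combination peaks alone.

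Most transcription factor genes with an input-referenced peak had it in both treatments, as did most RefSeq symbols (480, with 188 and 165 in 1 treatment only). Of 25 immediate early genes, 7 were found in both treatments against input, among them Jun (4 PCB126 and 2 combination peaks), Egr1 (3 and 4), Klf9 (3 and 3) and Myc (1 and 1). Against IgG, Myc had 1 PCB126 peak of 29.4 and no combination peak. Mcl1, an inhibitor of apoptosis, had 3 combination peaks up to 4.73 and no PCB126 peak against input, but 3 combination and 5 PCB126 peaks against IgG. Of 20 hepatocyte transcription factor genes, 5 were shared, among them Hnf4a (5 PCB126 and 7 combination peaks) and Cebpa (1 and 1), and Foxq1 was absent from the combination. Of 19 clock genes, 2 were shared, and Rora, a nuclear receptor of the clock, had 4 PCB126 peaks up to 15.1 against input and no peak in any other list.

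Unfolded protein response and immune genes had no member with PCB126 peaks alone against input, but only 5 and 9 members had any peak there. For scale, of all RefSeq symbols, 480 had a peak in both input-referenced lists, 188 in the combination only and 165 after PCB126 only. With so few members, nothing is read from the missing PCB126 side. All 5 of the 25 unfolded protein response genes with an input-referenced peak had it in both treatments, such as Hspa5, the chaperone BiP, with 4 PCB126 peaks up to 11 and 3 combination peaks up to 7.35. Of 31 inflammation and interferon genes, 9 had a combination and 6 a PCB126 peak against input, and 12 in each against IgG. Ifngr1 (2 up to 4.08) and H2-Q6 (1 of 13.8) had combination peaks alone against input, and both had peaks in both treatments against IgG. Of 30 genes of glutathione and oxidant defence, 5 had a combination and 4 a PCB126 peak against input. Txnip, which binds thioredoxin, had 5 combination peaks up to 7.14 and 3 PCB126 peaks up to 5.65. Mgst1, a microsomal glutathione transferase, had 1 of 3.90 in the combination and none after PCB126 with either reference. The control also had 1 Mgst1 peak of 2.14 against input.

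**Figure D5:**
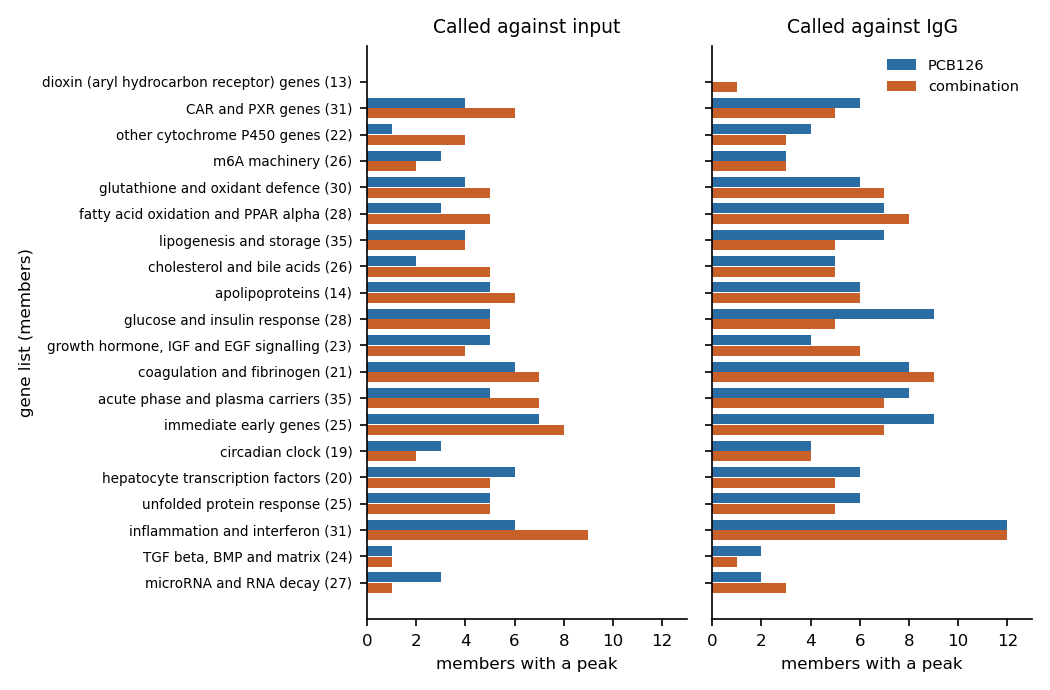
Members with at least 1 peak (horizontal axis, number of genes) in each of 20 gene lists, after PCB126 (blue) and in the combination (orange), called against input (left) and against IgG (right), with the size of each list in brackets. The order of the treatments differs between panels for several lists, such as the CAR and PXR genes, with 4 and 6 members against input and 6 and 5 against IgG.

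Only the 6 mitochondrially encoded genes with a peak in these lists were counted, so their counts describe and test nothing. Of them, 5 were listed in the combination and 3 after PCB126 against input, and 6 and 3 against IgG. ND2, ND5 and CYTB were counted through combination peaks alone. Of all RefSeq symbols, 668 had a combination and 645 a PCB126 peak against input, and 927 and 1031 against IgG. ND4 had 1 peak in each list, with 3.48 after PCB126 and 8.71 in the combination against input and 4.04 and 8.33 against IgG. COX1 had 2 peaks up to 1.59 and 3 up to 2.62 against input, and mt-Rnr2, the large ribosomal RNA, had 3.92 and 4.70. CYTB had 1 combination peak of 2.78 against IgG. By peak, the combination lists held 10 mitochondrial peaks against input and 12 against IgG, and the PCB126 lists 5 and 4. The share of reads from mitochondrial RNA in these libraries is unknown, and its part in these counts was not tested.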

How the data were processed

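Liver RNA was profiled by MeRIP in 5 m6A, 5 input and 1 pooled IgG library per treatment. Per the submitters' processing notes, reads were handled with BWA 0.7.17, Trimmomatic, FastQC 0.10.1 and bcl2fastq 2.20.0.422 on mouse build mm10. No source used here gives the caller's settings or gene annotation. Per the file headers, each peak has a fold enrichment (a linear ratio over the reference), a p-value and the log10 of its false discovery rate, all computed by the authors on a whole treatment. They were used as description, rank or filter. Folds of different lists were set side by side and ranked, without a test of their difference. Overlaps, shares and Wilson 95% intervals were computed with Python 3.11.15, pandas 2.3.3 and numpy 2.4.6, and the overlap code was tested on simulated peaks. Coordinates are mm10, counted from 1.

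Of 1512 Ensembl identifiers, 1352 were named by place and, where the RefSeq tables of GRCm38.p6 gave it, strand, with at least 80% of exonic peak bases inside the gene. For 264 the strand was not given, among them ND2, ND5, Ttpa, Car3, Galnt1, Ttr, Rb1cc1, Rsf1, Adh6-ps1, Slf2 and Foxq1. Reads of overlapping or antisense genes cannot be told apart.

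Named genes were the 15 with the highest input-referenced fold in each 1-treatment class, the 10 with the highest lower fold in all 4 lists, the 8 with the largest difference in peak number each way, and members of 26 gene lists. The members, lists and rules were chosen with earlier results of these data known. Alternatives were other references, overlaps, thresholds, list lengths and strands. A few named genes are not reported here.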

Additional observations from a re-analysis of the deposited data

How the results depend on the processing

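Of 44 recomputed values, 30 stayed within counting error (shares) or within 1.5 times (counts). The share of combination peaks found after PCB126 was 66.6% with the IgG lists, 41.2% with 50% reciprocal overlap, 66.2% at a fold of 2 or more, and 67.0% for peaks also in the own IgG list, an alternative chosen after seeing the data. The share of PCB126 peaks found in the combination was 56.3% with IgG and 43.1% with reciprocal overlap. The shares of unshared peaks in a gene with another peak of the other treatment were 47.7% (combination) and 41.2% (PCB126) with IgG and 59.5% and 58.5% with reciprocal overlap. One-sided genes numbered 210 and 184 against input alone and 234 and 348 against IgG alone, where fewer conditions apply. Exonic blocks, a false discovery rate of 0.001, equal list lengths and the plus strand alone moved none of their values beyond these limits. No paired analysis was possible because each list was called on a treatment as a whole and holds no values by animal, and for the same reason no replicate could be left out. Depth is unknown, so its part in the length of a list was not tested.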
